A study of Mus musculus with 12 samples.

Results

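The genes described here are the IgG receptors Fcgr1, Fcgr2b, Fcgr3 and Fcgr4, the signalling adaptors Fcer1g and Tyrobp, the receptors Trem1 and Trem2, the kinase Syk and the inhibitory receptor Pirb. They were chosen by symbol, with earlier results of these data known. Each of the 10 had 1 row among the 24221 rows of the authors' deposited table and a test among its 13814 tested genes. The cells were mouse acute myeloid leukaemia cells of the C57BL/6 strain that carry the MLL-AF9 fusion and loxP-flanked Riok2 alleles (Riok2fl/fl). In the comparison, 3 samples received hydroxytamoxifen (OHT) and 3 received its vehicle ethanol (EtOH), and all were taken at 72 h. OHT switches on tamoxifen-dependent Cre recombinases, which delete DNA between loxP sites, and RIOK2 is an atypical protein kinase needed for the small ribosomal subunit to mature. A second pair of groups, MLL-AF9 cells given DMSO or a RIOK2 inhibitor at 1 µM for 72 h (3 samples each), is not analysed here. The source of the Cre and whether the cells were 1 clone are not stated in the labels or notes used here. Both groups carry the fusion and the floxed alleles, and OHT itself and loss of Riok2 cannot be told apart in this comparison. The labels do not say that replicates were separate cultures, so every p-value here rests on a spread between samples that may be only technical.

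Fc gamma receptors bind the constant part of IgG and let myeloid cells take up or attack antibody-coated particles. The activating receptors Fcgr1, Fcgr3 and Fcgr4 have no complete signalling motif of their own in the mouse and pair with the Fc receptor gamma chain, the product of Fcer1g. Trem1 and Trem2 pair in the same way with DAP12, the product of Tyrobp. Both adaptors carry an ITAM, a pair of tyrosine motifs that Src family kinases phosphorylate and that then binds Syk. Inhibitory receptors such as Fcgr2b and Pirb carry ITIMs, single tyrosine motifs that recruit phosphatases and oppose this signal. In myeloid cells these genes are known for phagocytosis, cytokine release and the setting of activation thresholds.

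The ITAMs of the adaptors and the ITIMs of the inhibitory receptors are shown as coding sequence, read from the GENCODE M21 transcripts. The activating and inhibitory roles used here were assigned by gene and not by the motif searches. The ITAM search asked for tyrosine, any pair of residues, then leucine or isoleucine, and the same again 6 to 12 residues later. Among the 10 genes it matched Fcer1g and Tyrobp only, and in each the motif spanned 15 codons. The ITIM search asked for isoleucine, valine, leucine or serine, any residue, tyrosine, any pair of residues, then leucine, isoleucine or valine. It matched Fcgr2b at codon 317 of 340 and Pirb at codons 107, 711, 792 and 822 of 841. The same short pattern also matched in Fcgr1 (3 matches) and in Fcgr4, Fcer1g and Tyrobp (1 match each), so a match alone does not make an ITIM or an inhibitory receptor. The Pirb match at codon 107 lies far before the other 3 and is not shown. Capitals mark the codons of the tyrosines and of the leucine or valine that closes each motif.
Fcer1g codons 65 to 79: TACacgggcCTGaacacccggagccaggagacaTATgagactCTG
Tyrobp codons 92 to 106: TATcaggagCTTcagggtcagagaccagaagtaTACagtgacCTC
Fcgr2b from codon 317: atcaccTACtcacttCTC
Pirb from codon 711: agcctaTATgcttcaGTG
Pirb from codon 792: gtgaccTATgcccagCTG
Pirb from codon 822: agtgtaTATgctactCTG

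Riok2, the targeted gene, had a log2 fold of -3.60 ± 0.20 (SE, adjusted p = 7.8e-69), per the authors' deposited table, with a base mean of 712. The base mean is the mean over the 6 libraries of reads normalised for depth. The table names no direction, and every fold is therefore read as OHT over EtOH from the fall of Riok2. It holds no value for single samples, so each gene is given below by its base mean, by the fold with its deposited standard error from 3 against 3 samples, and by the level in each group that these imply. Whether single samples of the groups overlap cannot be read from such values. A gene was called where the authors' adjusted p was under 0.05. By this rule 25.5% of all 13814 tested genes were called higher (3521), 23.4% lower (3231) and 48.9% in either direction (6752) in the authors' deposited table.

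Size factors recovered from the lowest base means were 1.88, 1.01 and 0.697 for the libraries on the OHT side and 1.11, 0.870 and 0.783 on the EtOH side, relative depths that cannot be tied to sample names. Base means in the authors' deposited table summed to 20307732 normalised reads per library. All 8 markers of myeloid leukaemia cells were present, among them Ptprc (base mean 9796), Hoxa9 (3009), Meis1 (1648) and Elane (52333, log2 fold change -1.60 ± 0.17, adjusted p = 1.1e-18), in the authors' deposited table. From this list of 8, 2 were called higher and 4 lower, and their summed level implied by the folds was 156010 in EtOH and 89810 in OHT. The granule genes Mpo (base mean 34343, log2 fold -2.37 ± 0.23) and Elane went from 136218 to 37134 in sum and the other 6 from 19792 to 52676, among them Itgam, the gene of CD11b (base mean 19357, log2 fold 2.44 ± 0.12, adjusted p = 6.1e-84), per the authors' deposited table. Within those 6, Itgam and Ptprc (log2 fold 1.10 ± 0.12, adjusted p = 1.6e-17) were called higher. Hoxa9 (-0.55 ± 0.19, adjusted p = 0.0098) and Meis1 (-0.41 ± 0.14, adjusted p = 0.0082) were called lower, and 2 were not called, in the authors' deposited table. The B cell markers Ms4a1 and Pax5 and the T cell marker Cd3e were listed at 0 in the authors' deposited table. The summed base mean in the authors' deposited table was 158 for B cell markers (204 in EtOH and 113 in OHT), 17.6 for T cell markers (8.75 and 26.6) and 16.4 for NK cell markers (13.4 and 19.5). The T cell markers Trac and Trbc2 had no row and are not in the sum. At sums as low as those of T and NK cells, the split by group is uncertain. The 6 mast cell and basophil markers summed to 20334 in the authors' deposited table, mostly Cpa3 (base mean 13267, log2 fold change 0.64 ± 0.62, adjusted p = 0.41), with implied sums of 15670 in EtOH and 24998 in OHT. Of these 6 markers, 5 were tested and 0 were called, at log2 folds from 0.64 to 1.47 and a median standard error of 0.64 in the authors' deposited table. Mast cells and basophils also express Fcer1g, Fcgr3, Fcgr2b, Syk and Pirb, and the part of these cells in the results was not tested. Platelet and megakaryocyte markers summed to 1295 (781 in EtOH and 1809 in OHT, 1 of 5 called higher) and stromal markers to 1657, of which Pecam1, also a leukocyte gene, had a base mean of 1579 in the authors' deposited table. In such bulk samples, fewer cells of a type and less RNA per cell cannot be told apart.

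All 10 genes were called higher in OHT and 0 lower in the authors' deposited table, where 25.5% of all tested genes were called higher. Among tested genes at a base mean of 100 or more, the range in which all 10 genes lie, 29.2% were called higher (2892 of 9888). The median log2 fold of the 10 genes was 1.20, with a range from 0.69 to 2.87, beside a median of 0.050 over all tested genes in the authors' deposited table. The middle 50% of all tested genes lay between -0.47 and 0.67, so that each of the 10 genes, Fcgr2b at 0.69 included, had a fold above the upper bound of that range. The order of the folds ran from Pirb and Trem2 through Trem1, Fcgr4, Fcgr1, Syk, Fcgr3, Tyrobp and Fcer1g to Fcgr2b. The plot of the folds with their intervals shows Pirb and Trem2 furthest to the right, with intervals that start at 2.54 and 2.04, while those of the other 8 genes end at or below 2.13.

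**Figure D1:**
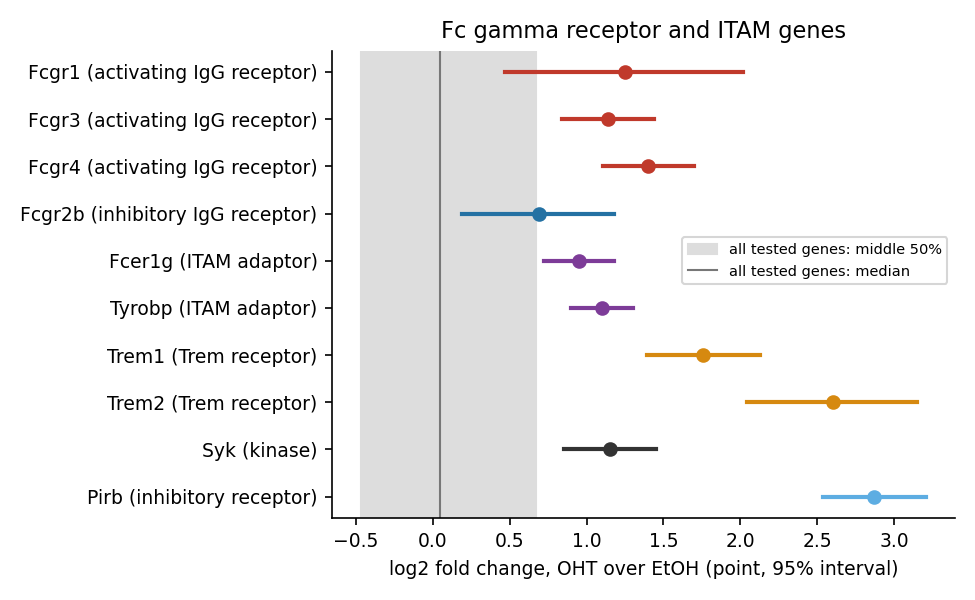
Log2 fold change of OHT over EtOH for the 10 genes (points), with 95% intervals from the deposited standard errors (bars, 3 against 3 samples), coloured by role. The grey band is the middle 50% of all tested genes (-0.47 to 0.67) and the line their median (0.050), and the points of all 10 genes lie to the right of the band.

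The 3 activating IgG receptors rose together, by 2.21 to 2.64-fold. Fcgr3, the low-affinity receptor that myeloid cells use for IgG immune complexes, had a base mean of 6505 with a log2 fold of 1.14 ± 0.15 (SE, adjusted p = 1.4e-12), per the authors' deposited table. Its implied level was 4054 normalised reads in EtOH and 8955 in OHT, a fold of 2.21 with a 95% interval from 1.79 to 2.72. Fcgr3 was thus the most abundant of the IgG receptors in both groups.

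Fcgr4, the receptor of intermediate affinity that binds mouse IgG2a and IgG2b, had a base mean of 547 with a log2 fold of 1.40 ± 0.15 (SE, adjusted p = 4e-19), per the authors' deposited table. Its implied level was 300.3 in EtOH and 793 in OHT, a fold of 2.64 (95% interval 2.15 to 3.24). Fcgr1, the high-affinity receptor that can hold single IgG molecules, had a base mean of 447 with a log2 fold of 1.25 ± 0.39 (SE, adjusted p = 0.0043), per the authors' deposited table. It rose 2.37-fold, with a wide 95% interval from 1.39 to 4.05, and its implied levels of 265 and 629 normalised reads had intervals from 177 to 374 in EtOH and from 520 to 717 in OHT. Its call was lost under Holm adjustment. The intervals of the 3 activating receptors overlapped, and the differences between their folds were not tested.

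Fcgr2b, the inhibitory one of the 4 IgG receptors, rose least. It had a base mean of 3840 with a log2 fold of 0.69 ± 0.25 (SE, adjusted p = 0.015), per the authors' deposited table. The implied level was 2943 in EtOH and 4737 in OHT, a fold of 1.61 (95% interval 1.14 to 2.27). Its call was lost at an adjusted p under 0.01, under Holm adjustment, and where an absolute log2 fold of at least 1 was asked for. The 95% interval of its log2 fold, 0.19 to 1.18, overlapped those of Fcgr3 (0.84 to 1.44), Fcgr1 (0.47 to 2.02) and Fcgr4 (1.11 to 1.70), and a difference between the inhibitory and activating receptors was not tested.

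Per kilobase of transcript, the implied level of Fcgr3 was 3010 in EtOH and 6648 in OHT, that of Fcgr2b 831 and 1337, that of Fcgr4 239 and 631, and that of Fcgr1 102 and 243. Fcgr3 made up 72.0% of the summed level of the 4 receptors per kilobase in EtOH and 75.0% in OHT. The share of Fcgr2b was 19.9% in EtOH and 15.1% in OHT, while Fcgr4 went from 5.72% to 7.12% and Fcgr1 from 2.45% to 2.74%. The ratio of Fcgr3 to Fcgr2b per kilobase was 3.62 in EtOH and 4.97 in OHT. These shares are descriptions with no error of their own. They depend on the transcript taken for Fcgr2b, with a length of 3544 bases where its shortest full-length coding transcript has 1084.

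Fcgr3 and Fcgr2b share sequence. Of the 50-base words in the coding transcripts of Fcgr3, 10.2% (166 of 1627) also occurred in a transcript of another annotated gene, all of them in Fcgr2b. Of those of Fcgr2b, 10.7% (395 of 3708) did, 4.48% with Fcgr3. Reads in these stretches may be dropped or split by the counting, so the values of both genes are uncertain to that extent. Fcgr1, Fcgr4, Fcer1g, Tyrobp, Trem1, Trem2 and Syk shared 0 such words with other annotated genes.

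The adaptors were the most abundant of the 10 genes, and both rose, by 1.93 and 2.15-fold. Fcer1g, the chain that carries the ITAM for the activating IgG receptors, had a base mean of 8932 with a log2 fold of 0.95 ± 0.12 (SE, adjusted p = 9.2e-15), per the authors' deposited table. Its implied level was 6101 in EtOH and 11762 in OHT, a fold of 1.93 (95% interval 1.65 to 2.26), so that its call was lost only where an absolute log2 fold of at least 1 was asked for. Tyrobp, which carries the ITAM for the Trem receptors, had a base mean of 10104 with a log2 fold of 1.10 ± 0.10 (SE, adjusted p = 1.7e-25), per the authors' deposited table.

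The implied level of Tyrobp was 6421 normalised reads in EtOH and 13787 in OHT, a fold of 2.15 (95% interval 1.87 to 2.47). Per kilobase, Tyrobp stood at 11385 and 24445 and Fcer1g at 9052 and 17451, above every other member in both groups. The ratio of Tyrobp to Fcer1g per kilobase was 1.26 in EtOH and 1.40 in OHT. The 95% intervals of the log2 folds overlapped, from 0.72 to 1.18 for Fcer1g and from 0.90 to 1.30 for Tyrobp.

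**Figure D2:**
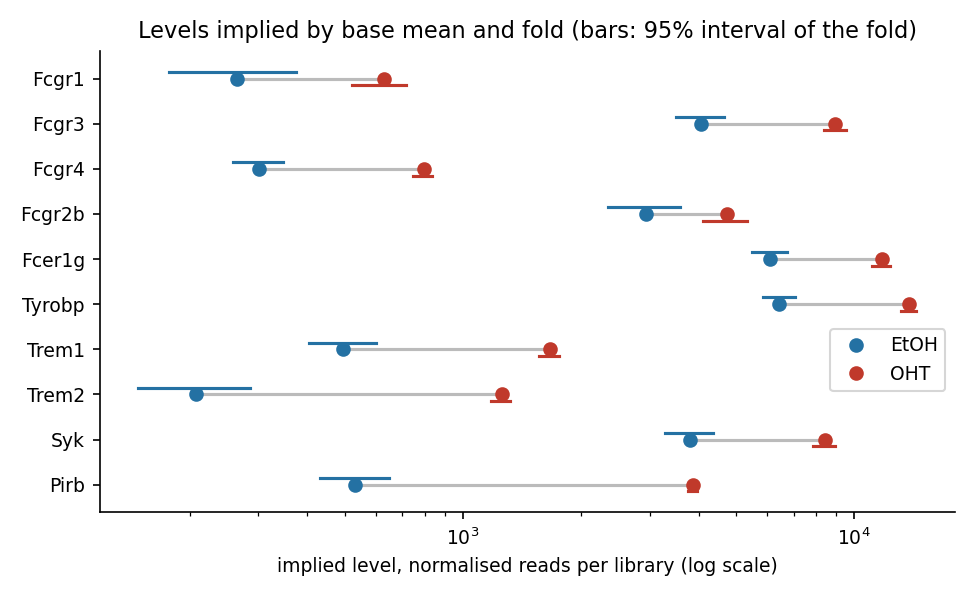
Level of each gene in EtOH (blue) and OHT (red) implied by the deposited base mean and fold, in normalised reads per library on a log axis, with bars for the 95% interval of the fold. The points are not measured per sample. Tyrobp runs from 6421 to 13787 and Trem2 from 208 to 1257.

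Trem1 and Trem2 both had higher point values than their adaptor Tyrobp, a difference that was not tested. Trem2, a receptor for lipids and apolipoproteins on macrophages and microglia, had a base mean of 733 with a log2 fold of 2.60 ± 0.28 (SE, adjusted p = 1.1e-18), per the authors' deposited table. The implied level was 208 in EtOH, with an interval from 148 to 286, and 1257 in OHT (1179 to 1317), a fold of 6.05 (95% interval 4.12 to 8.87). Trem2 had the second largest fold of the 10 genes, and 98.2% of all tested genes had a smaller one.

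Trem1, which amplifies inflammatory responses of neutrophils and monocytes, had a base mean of 1083 with a log2 fold of 1.76 ± 0.19 (SE, adjusted p = 3.5e-19), per the authors' deposited table. Its implied level was 494 in EtOH and 1672 in OHT, a fold of 3.39 (95% interval 2.62 to 4.38). The ratio of Trem1 to Trem2 per kilobase was 0.838 in EtOH and 0.469 in OHT. The 95% interval of the log2 fold was 1.39 to 2.13 for Trem1 and 2.04 to 3.15 for Trem2, so the intervals overlapped at their ends, and the difference was not tested.

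Syk, the kinase that docks on phosphorylated ITAMs, had a base mean of 6110 with a log2 fold of 1.15 ± 0.15 (SE, adjusted p = 4.5e-13), per the authors' deposited table. The implied level was 3794 normalised reads in EtOH and 8427 in OHT, a fold of 2.22 (95% interval 1.81 to 2.73). This point value lay between those of Fcer1g and Fcgr4. Per kilobase, the ratio of Syk to Fcer1g was 0.0781 in EtOH and 0.0900 in OHT, with a Syk length of 5363 bases where its shortest full-length coding transcript has 2519.

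Pirb, a receptor for class I major histocompatibility molecules whose ITIMs recruit phosphatases, had the largest fold of the 10. Its base mean was 2203 and its log2 fold change 2.87 ± 0.17 (SE, adjusted p = 3.8e-60), per the authors' deposited table, rank 18 of all tested genes by p-value. The implied level was 529 in EtOH and 3877 in OHT, a fold of 7.33 (95% interval 5.80 to 9.25). Pirb and Fcgr2b, the inhibitory members, thus stood at opposite ends of the order of folds.

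The value of Pirb is uncertain because of near-identical genes beside it, the Pira family, which code for activating partners of Fcer1g. Of the 50-base words of the Pirb transcript, 37.3% (1407 of 3775) occurred in another annotated gene, most often in Gm14548 (21.7%). In the authors' deposited table, Pira6 had a base mean of 289 with a log2 fold of 3.22 ± 0.30 (SE, adjusted p = 6.8e-25), and Lilra6 had a base mean of 810 with a log2 fold of 1.83 ± 0.18. Pira2 had a base mean of 88.1 with a log2 fold of 2.28 ± 0.34 in the authors' deposited table, while Pira1, Pira4, Pira7, Pira11 and Gm14548 were listed at 0. Reads of Pirb and of these copies may be split between them, and which copy gave the reads was not tested.

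The standard errors of the 10 genes stood at different places among genes of like base mean. Fcgr1 had a larger standard error than 97.6% of the 2090 tested genes whose base mean was within a factor of 1.5 of its own (median 0.19), in the authors' deposited table. Fcgr2b (96.9% of 1278, median 0.15) and Trem2 (95.3% of 2529, median 0.17) were also in the upper tail of like genes in the authors' deposited table. Tyrobp was at the other end, with a standard error above that of 3.07% of 358 such genes in the authors' deposited table, and Fcgr4 was above 14.8% of its 2317 like genes. The Fc receptor genes therefore span the range from tightly to loosely measured genes, and the spread over samples behind it cannot be read from the table. In the plot of standard error against base mean, the mast cell and basophil markers lie between 0.62 and 0.75, above all 10 genes, of which the highest is Fcgr1 at 0.39.

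**Figure D3:**
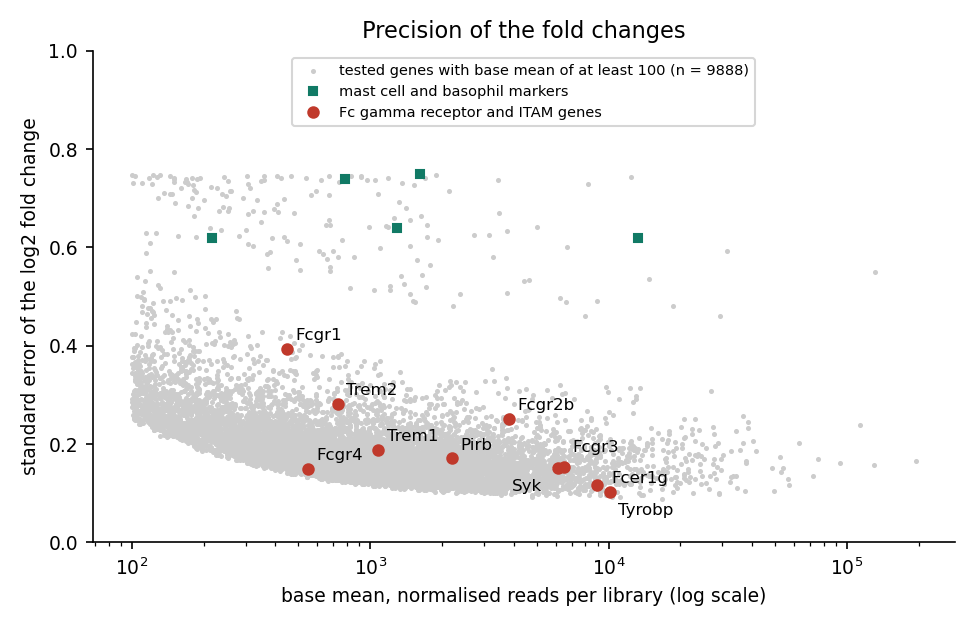
Standard error of the log2 fold change against base mean (normalised reads per library, log axis) for tested genes at a base mean of 100 or more (grey, n = 9888), the 10 genes (red, named) and the 5 tested mast cell and basophil markers (green). Fcgr1 (0.39), Trem2 (0.28) and Fcgr2b (0.25) lie high in the cloud for their base mean, and Tyrobp (0.10) at its lower edge.

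The 7 lists hold other genes of the same pathway, of which 125 distinct genes of 143 were tested. In the authors' deposited table, 87 of them were called higher (69.6%), 6 lower and 32 in neither direction, with a median log2 fold of 1.10, beside 25.5% called higher and a median of 0.050 over all tested genes. The lists share the cells and the comparison with the 10 genes and are given as counts. All lists were chosen with earlier results of these data known, so their counts are no independent support.

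Of 22 tested receptors that signal through Fcer1g or Tyrobp, 17 were called higher and 0 lower, with a median log2 fold of 1.80 in the authors' deposited table. The 17 include Pira2, Pira6 and Lilra6, and reads may be split between these genes and Pirb, as given above. At a base mean of 100 or more, 11 of 15 tested receptors were called higher. The largest was Clec4n, the gene of Dectin-2, a receptor for fungal mannans (base mean 8826, log2 fold change 4.05 ± 0.23, adjusted p = 1.5e-65, per the authors' deposited table). Clec5a (log2 fold change 1.76 ± 0.24, adjusted p = 2.7e-12), a Tyrobp-coupled lectin, and Cd300lb (2.24 ± 0.17, adjusted p = 1.7e-36) also rose in the authors' deposited table. Fcer1a, the IgE-binding chain of mast cells and basophils, was not called at a base mean of 1298 (log2 fold change 0.70 ± 0.64, adjusted p = 0.38), per the authors' deposited table.

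Of 7 tested genes for other ITAM or YxxM adaptors and hemITAM receptors, 4 were called higher, 1 lower and 2 neither, with a median log2 fold of 1.66 in the authors' deposited table. Of the 4, Cd79a, Cd3d and Clec9a, named for the size of the count, each had a base mean under 100 (Cd79a 9.49, Clec9a 3.91) in the authors' deposited table, and 1 of 3 tested genes was called higher at a base mean of 100 or more, 2 of 7 at an adjusted p under 0.01. Clec7a, the gene of the beta-glucan receptor Dectin-1, had a base mean of 4767 with a log2 fold of 2.78 ± 0.29 (adjusted p = 5.7e-20), per the authors' deposited table. Hcst, which codes for the YxxM adaptor DAP10, was not called (base mean 438, log2 fold change 0.52 ± 0.28, adjusted p = 0.12, per the authors' deposited table). Cd79b, a B cell receptor chain, was lower (base mean 149, log2 fold change -1.02 ± 0.26, adjusted p = 0.00032, per the authors' deposited table).

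Of 11 tested Src family kinases and regulators, 8 were called higher, 1 lower and 2 neither, with a median log2 fold of 1.10 in the authors' deposited table. The kinases Fgr and Lyn, which phosphorylate ITAMs in myeloid cells, rose: Fgr by 2.92 ± 0.19 (adjusted p = 1.3e-49) and Lyn by 1.02 ± 0.15 (adjusted p = 2.6e-10) on the log2 scale in the authors' deposited table. The phosphatases Ptprj (2.92 ± 0.28, adjusted p = 8.6e-24) and Ptprc, the gene of CD45 (1.10 ± 0.12, adjusted p = 1.6e-17), which act on these kinases, rose as well in the authors' deposited table. Csk, the kinase that holds them inactive, rose by 0.27 ± 0.11 (adjusted p = 0.027) on the log2 scale in the authors' deposited table. The lower one was Lck, a kinase of T cells that was named with its value known (base mean 72.9, log2 fold change -2.49 ± 0.41, adjusted p = 1.3e-08, per the authors' deposited table).

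Downstream of Syk, 26 of 35 tested genes were called higher and 0 lower, with a median log2 fold of 0.63 in the authors' deposited table. The 26 became 13 where an absolute log2 fold of at least 1 was asked for, and 10 under Holm adjustment. Pik3r5, a regulatory subunit of phosphoinositide 3-kinase gamma (2.55 ± 0.20, adjusted p = 6.2e-34), Pik3ap1, an adaptor for these kinases (1.81 ± 0.24, adjusted p = 5.5e-13), and the scaffold Lat (1.77 ± 0.49, adjusted p = 0.001) had the largest called log2 folds at a base mean of at least 100 in the authors' deposited table. The most abundant were Rac2 (base mean 24382, log2 fold change 0.42 ± 0.12, adjusted p = 0.001) and Cdc42 (14890, 0.46 ± 0.11, adjusted p = 9.2e-05), small GTPases that drive actin at the phagocytic cup, in the authors' deposited table. Prkcd, a protein kinase C, had a base mean of 8342 with a log2 fold of 1.49 ± 0.16 (adjusted p = 6.6e-19), per the authors' deposited table.

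Of 26 tested genes listed as inhibitory receptors other than Fcgr2b and Pirb, not all of which carry an ITIM, 16 were called higher, 1 lower and 9 neither, with a median log2 fold of 1.79 in the authors' deposited table. Sirpa, which binds CD47 and restrains phagocytosis, had a base mean of 12273 with a log2 fold of 1.78 ± 0.15 (adjusted p = 6.3e-31), per the authors' deposited table. Cd200r1, the receptor for CD200, which signals through Dok proteins and not an ITIM, had a log2 fold of 3.04 ± 0.23 (adjusted p = 1.9e-36), per the authors' deposited table. The values of Lilrb4 (2.86 ± 0.21, adjusted p = 8.9e-40) and Gp49a (3.03 ± 0.25, adjusted p = 5.2e-32), per the authors' deposited table are uncertain, since these genes are near-identical copies, and Gp49a itself lacks an ITIM. The lower one was Clec12a, an ITIM lectin of myeloid cells (base mean 11323, log2 fold change -0.44 ± 0.16, adjusted p = 0.017, per the authors' deposited table).

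Of 14 tested phosphatases, Dok and Cbl proteins that limit ITAM signals, 10 were called higher (4 with an absolute log2 fold of at least 1, 6 under Holm adjustment), 0 lower and 4 neither, with a median log2 fold of 0.72 in the authors' deposited table. Ptpn6, the gene of the phosphatase SHP-1 (0.77 ± 0.16, adjusted p = 7.5e-06), and Inpp5d, the gene of the lipid phosphatase SHIP1 that Fcgr2b recruits (0.92 ± 0.16, adjusted p = 9.6e-08), rose on the log2 scale in the authors' deposited table. Ptpn11, the gene of SHP-2, was not called (base mean 3904, log2 fold change -0.07 ± 0.14, adjusted p = 0.69, per the authors' deposited table). Cbl (1.72 ± 0.32, adjusted p = 5.7e-07), a ubiquitin ligase that targets Syk, Dok2 (1.64 ± 0.27, adjusted p = 1e-08) and Ubash3b (1.26 ± 0.17, adjusted p = 4.7e-12) had the largest called log2 folds in the authors' deposited table.

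The last list holds other IgG receptors, Trem ligands and the proteases that shed Trem receptors, with 6 of 10 tested genes called higher, 3 lower and 1 neither, and a median log2 fold of 0.74 in the authors' deposited table. The 6 became 3 where an absolute log2 fold of at least 1 was asked for, and 1 under Holm adjustment. Fcgrt, the neonatal Fc receptor that recycles IgG (1.34 ± 0.34, adjusted p = 0.0003), Pglyrp1, a Trem1 ligand (1.40 ± 0.21, adjusted p = 4.8e-10), and Adam10, a sheddase of Trem2 (0.78 ± 0.18, adjusted p = 4.5e-05), rose on the log2 scale in the authors' deposited table. The 3 lower genes were Hmgb1 (-0.94 ± 0.15, adjusted p = 4.6e-09), a chromatin protein proposed as a Trem1 ligand, and the Trem2 ligands Apoe (base mean 95.6, -0.70 ± 0.30, adjusted p = 0.041) and Clu (70.3, -1.19 ± 0.34, adjusted p = 0.0016), per the authors' deposited table. Apoe and Clu were named after their values were seen.

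**Figure D4:**
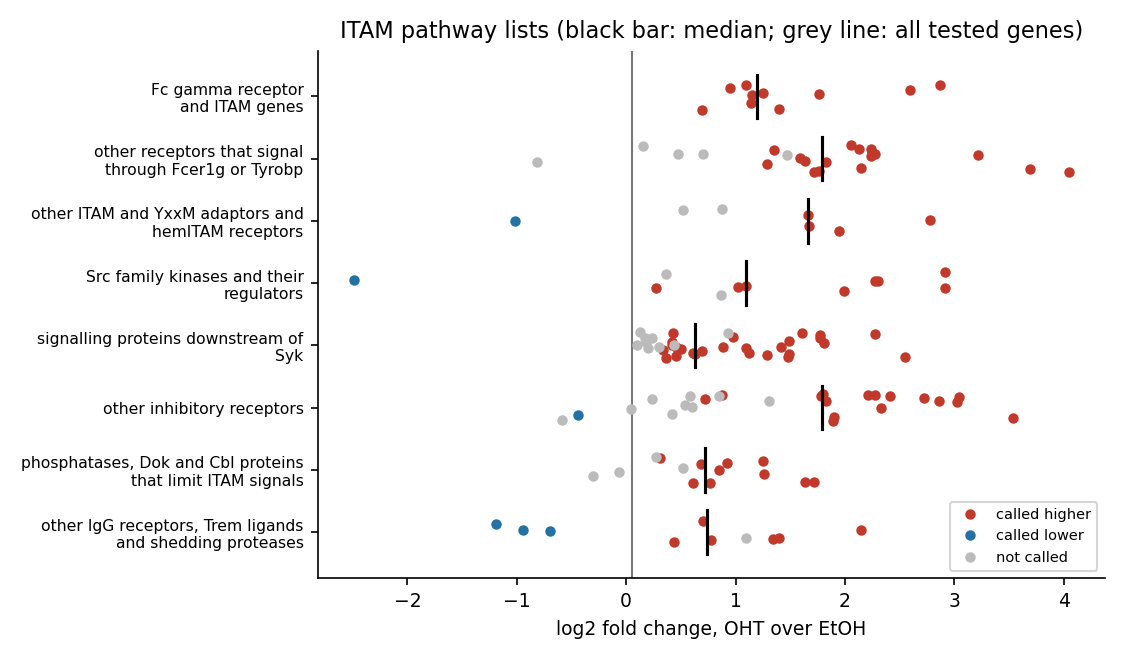
Log2 fold change of OHT over EtOH for the 10 genes (top) and for each tested gene of the 7 pathway lists, 1 point a gene, red for genes called higher, blue for lower and grey for not called. The black bars are medians, from 0.63 downstream of Syk to 1.80 for receptors that signal through Fcer1g or Tyrobp, and the grey line is the median of all tested genes (0.050).

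The genome positions of the 10 genes, all protein coding, come from GENCODE M21 on GRCm38, the assembly named mm10. Fcgr2b (170958617 to 170976547, minus strand), Fcgr4 (171018920 to 171029761, plus strand), Fcgr3 (171051174 to 171064935, minus strand) and Fcer1g (171229572 to 171234365, minus strand) lie on chromosome 1. Trem1 (48232768 to 48246924) and Trem2 (48346401 to 48354147) lie on the plus strand of chromosome 17. Pirb (3711409 to 3720391, minus strand) and Tyrobp (30413760 to 30417585, plus strand) lie far apart on chromosome 7. Fcgr1 lies on chromosome 3 (96282909 to 96293969, minus strand) and Syk on chromosome 13 (52583173 to 52648792, plus strand).

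Within 100 kb of the 10 genes, 51 other genes were tested, and 10 were called higher (19.6%), 10 lower (19.6%) and 31 neither in the authors' deposited table, beside 25.5% and 23.4% of all tested genes. Near Fcgr4 and Fcgr3, 0 of 3 tested neighbours were called in the authors' deposited table. On the log2 scale, those of Fcgr4 were Fcrla (0.54 ± 0.70), Cfap126 (-0.88 ± 0.49) and Sdhc (-0.27 ± 0.15). Of the 4 tested neighbours of Fcgr2b, 2 were called lower in the authors' deposited table. These were Atf6 (-0.57 ± 0.12, adjusted p = 1.7e-05) and Dusp12 (-0.68 ± 0.24, adjusted p = 0.012), per the authors' deposited table. Of the 9 tested neighbours of Pirb, 2 were called higher, 2 lower and 5 neither in the authors' deposited table. Rps9, a ribosomal protein gene 4.51 kb from Pirb, was lower (base mean 25119, log2 fold change -1.17 ± 0.17, adjusted p = 6.5e-11, per the authors' deposited table). Mboat7, 17.9 kb from Pirb, was higher (base mean 1210, log2 fold change 0.94 ± 0.14, adjusted p = 1.7e-10, per the authors' deposited table). Hcst lies 0.127 kb from Tyrobp and, as given above, was not called. Of the 8 tested neighbours of Tyrobp, 2 were called higher, 2 lower and 4 neither in the authors' deposited table.

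Of the 6 tested neighbours of Trem1, 4 were called higher, and of the 8 of Trem2, 3 were. Trem3, an activating receptor 0.853 kb from Trem1, had a base mean of 1234 with a log2 fold of 0.15 ± 0.24 (adjusted p = 0.63), per the authors' deposited table. Treml2 was not called either (base mean 2972, log2 fold change 0.13 ± 0.13, adjusted p = 0.41, per the authors' deposited table). Treml4 (base mean 82.3, log2 fold change 3.69 ± 0.50, adjusted p = 3.7e-12) and B430306N03Rik, for which RefSeq gives the synonym Treml6 (base mean 1248, log2 fold change 1.86 ± 0.18, adjusted p = 3.1e-23), were called higher in the authors' deposited table. Treml1, a platelet gene, was called higher at a base mean of 9.40 (log2 fold change 2.33 ± 0.72, adjusted p = 0.0034, per the authors' deposited table). On the other side of Trem1, 9830107B12Rik (base mean 359, log2 fold 2.59 ± 0.23, adjusted p = 1.9e-27) and A530064D06Rik (228, 2.43 ± 0.31, adjusted p = 1.5e-13) were called higher too, per the authors' deposited table. From Trem1 to Trem2, called and uncalled genes were thus interleaved. The neighbours outside the lists were named after their values were seen.

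**Figure D5:**
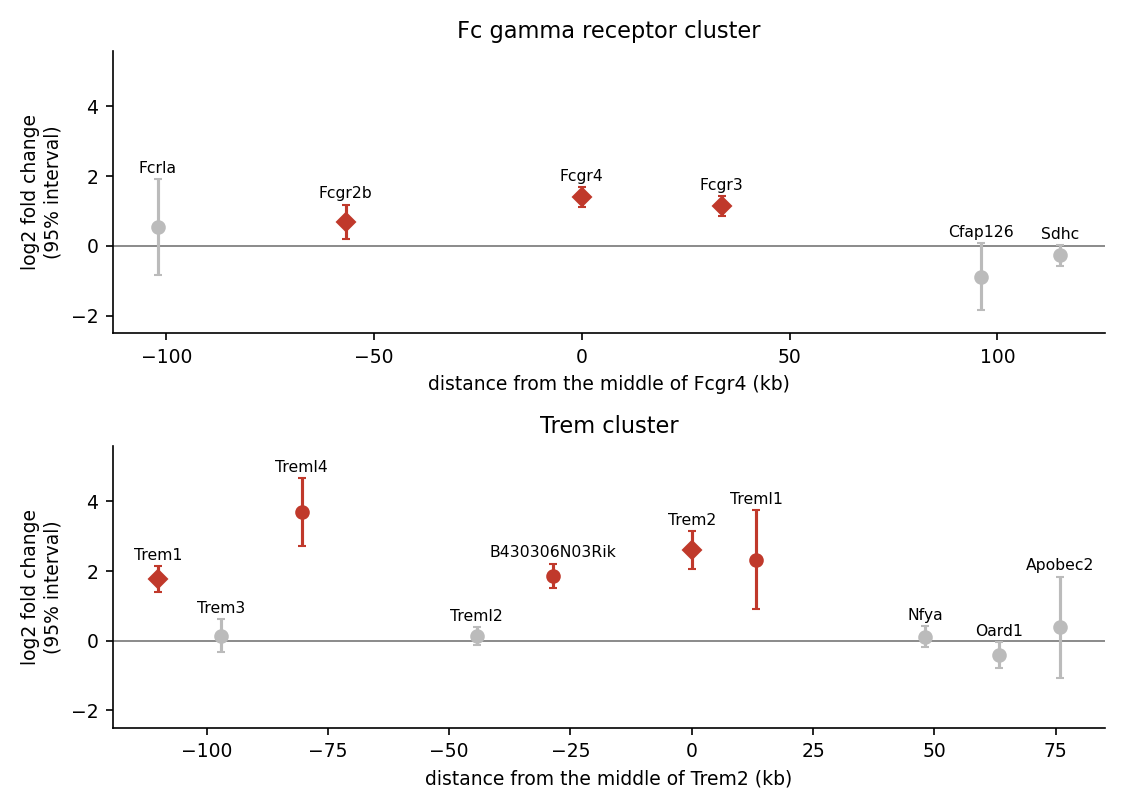
Log2 fold change (95% interval from the deposited standard error) against distance in kb from the middle of Fcgr4 (top) and of Trem2 (bottom, genes within 100 kb of Trem2), with diamonds for the 10 genes, red for genes called higher and grey for genes not called. Within 100 kb of Fcgr4, Fcgr2b, Fcgr4 and Fcgr3 lie between neighbours that were not called. Atf6 and Dusp12, called lower near Fcgr2b, lie outside this window. In the Trem cluster Trem3 (0.15) and Treml2 (0.13) lie between genes called higher.

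RefSeq promoters on GRCm38.p6 (250 bases before to 50 after a start) were found for 9 of the 10 genes and are described here by their letters. PU.1, C/EBP, STAT, IRF and AP-1 proteins are transcription factors that act at myeloid promoters. The core motif of PU.1, GAGGAA, was found on either strand in 7 of the 9 genes, beside 28.3% of all 32851 promoters (9289). It started at -55 in Fcgr1, -6 in Fcgr3, -22 in Fcgr4, -40 in Trem2 and -162 in Trem1, counted from the RefSeq start, occurred 3 times in Pirb and was in the second of the Syk promoters only. The letters GAGGAA were not in the windows of Fcgr2b and Fcer1g. The end of the Trem1 window was not found in an annotated coding transcript of Trem1, so the start used for that gene is uncertain. The C/EBP motif TTGCNNAA was in 2 of the 9 genes (10.8% of all promoters), the STAT motif TTCNNNGAA in 2 (8.30%), the IRF motif (GAAA, any pair of bases, GAAA) in 1 (3.44%) and the AP-1 motif TGANTCA in 1 (7.81%). Fcgr3 and Syk had 2 promoter entries each and so more sequence in which to match. A match describes the letters and no binding was measured. The 150 bases before the start are shown for 5 genes with a PU.1 match in them, on the strand of the gene, with capitals for matches to any of the 5 motifs on either strand (GAGGAA appears as TTCCTC where it lies on the other strand).
Fcgr1 chr3:96293970-96294119 (-): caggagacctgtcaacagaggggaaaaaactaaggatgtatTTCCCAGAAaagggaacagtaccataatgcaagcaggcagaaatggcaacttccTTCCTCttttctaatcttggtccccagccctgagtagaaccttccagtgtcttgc
Fcgr3 chr1:171059404-171059553 (-): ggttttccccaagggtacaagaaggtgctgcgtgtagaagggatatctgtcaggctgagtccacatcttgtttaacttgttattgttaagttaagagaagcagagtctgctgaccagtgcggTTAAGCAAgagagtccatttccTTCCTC
Fcgr4 chr1:171018776-171018925 (+): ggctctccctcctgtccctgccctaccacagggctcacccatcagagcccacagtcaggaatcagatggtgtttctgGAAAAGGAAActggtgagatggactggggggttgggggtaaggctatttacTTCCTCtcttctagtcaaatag
Trem2 chr17:48346251-48346400 (+): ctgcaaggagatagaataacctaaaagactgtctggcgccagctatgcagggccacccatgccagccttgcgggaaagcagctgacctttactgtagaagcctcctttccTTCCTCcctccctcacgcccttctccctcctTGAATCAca
Pirb chr7:3720383-3720532 (-): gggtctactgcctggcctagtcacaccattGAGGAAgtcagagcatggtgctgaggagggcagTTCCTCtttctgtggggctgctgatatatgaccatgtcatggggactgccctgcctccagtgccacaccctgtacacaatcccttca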

How the data were processed

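RNA sequencing of 12 samples in 4 groups of 3 was described in the labels; the OHT and EtOH groups enter here through 1 table of the authors' own comparison. Per the labels' protocols, RNA came from RNeasy Mini columns and libraries from TruSeq kits. HTSeq 0.9.1, STAR 2.7.2b, Trimmomatic 0.38.0, DESeq and DESeq2 are the tools named, and mm10 the build, per the submitters' processing notes; annotation and strand setting are not given in the sources used. Each deposited row holds a base mean (a signal: depth-normalised reads, averaged over libraries by the authors). Beside it the authors give the log2 fold, its error in log2 units, the Wald score, and p-values before and after adjustment. The deposited Wald score matched fold over error with a largest gap of 7.6e-08, and the deposited adjusted p-values matched a Benjamini-Hochberg adjustment with a largest gap of 2.3e-07. No deposited standard error exceeds 0.747, even for genes with 1 read, so the folds are treated as shrunken by a prior, which would understate changes with wide errors.

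Among 24221 rows, 6693 were at a base mean of 0, 3663 had a p-value but no adjusted p-value, 51 had a fold but no p-value, and 13814 were tested. The table has 0 columns per sample, so samples were not tested here, and every call is an adjusted p-value of the authors under 0.05. Intervals of 95% are the fold plus or minus the normal quantile times the deposited standard error. Implied levels split the base mean by the fold, with equal group sizes. They inherit the shrinkage of the folds, so the 2 groups would stand too close for genes with few reads. Whole reads per library were solved for 4105 genes with a base mean of at most 3, each with 1 solution within a tolerance of 1e-08; the solver and the call counts were tested on simulated data. Sequence came from GENCODE M21 and RefSeq. Python 3.11.15, pandas 2.3.3, numpy 2.4.6, scipy 1.17.1 and matplotlib 3.10.9 were used. Of each pathway list the text names genes among the 3 highest base means and the 3 largest called folds at a base mean of at least 100, and of each marker list at least the highest base mean; others are said to be named later, and some genes are not reported here. The 10 genes and all lists were chosen with earlier results of these data known. Alternative thresholds, filters, adjustments and centring were tried.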

Additional observations from a re-analysis of the deposited data

How the results depend on the processing

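All 10 genes stayed called higher when p-values were adjusted again at a base mean of at least 100 or with no filter, when genes with a standard error above 0.5 were left out, and when folds were centred on the median of genes at a base mean of 100 or more (a shift of -0.021). An adjusted p under 0.01 left 9 (Fcgr2b lost), an absolute log2 fold of at least 1 left 8 (Fcgr2b and Fcer1g lost), and Holm adjustment left 8 (Fcgr1 and Fcgr2b lost). Over these 7 alternatives, 65 fold calls of the 10 genes stayed, 5 were lost and 0 changed sign. No sign could change, since all alternatives use the deposited folds, of which the smallest was 0.69, or shift them slightly. The filters by base mean and standard error could remove none of the 10 genes. Their lowest base mean was 447 and their largest standard error 0.39. The share of all tested genes called in either direction was 48.9%, and 39.8% at an adjusted p under 0.01. It was 20.9% with the fold asked for and 21.2% under Holm adjustment. At a base mean of at least 100 it was 60.5%, with no filter 37.4%. Without standard errors above 0.5 it was 57.1%, and after centring 48.8%. Shares called higher alone are not given for these alternatives. The called genes of the pathway lists, 93 in all, were 51 under Holm adjustment. Fewer genes can pass the stricter rules by construction. Over the 7 lists and 7 alternatives, 38 counts of genes called higher stayed within 1.5 times and 11 did not. Raw counts were compared, and the filters by base mean and standard error leave fewer tested genes. The receptors that signal through Fcer1g or Tyrobp, for 1, went from 17 of 22 to 11 of 15 at a base mean of at least 100. No paired analysis was possible because the table has no values per sample, and leaving out each replicate was not run for the same reason. Depth per named sample is unknown.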

Other observations

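Some receptor and adaptor genes of the pathway lists had so few reads that whole reads per library could be solved from their base means. Ncr1, a receptor of NK cells, had 8 reads, of which 7 were in the OHT-side library with the size factor 0.697. Gp6, a platelet collagen receptor, had 7 reads, of which 6 were in that same library. Klrk1, the gene of NKG2D, had 15 reads, with 3 on the OHT side and 12 on the EtOH side. Cd3g, a T cell receptor chain, had 10 reads, all on the OHT side and spread as 4, 2 and 4 over its libraries. Cd247 had 6 reads, Oscar 8, Siglech 4 and Zap70 2 over all 6 libraries. These values are given with no test.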
